A study of Mus musculus with 6 samples.

Results

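The miR-17~92 cluster is a run of 6 microRNA hairpins, Mir17, Mir18, Mir19a, Mir20a, Mir19b-1 and Mir92-1, that are cut from 1 primary transcript. Its members were chosen by name, as 6 of the 1174 mouse hairpins of the GENCODE annotation, and their reads were counted in all 6 small RNA libraries of the study. Bone marrow monocytes/macrophages (BMMs) of wild type C57BL/6 mice were cultured in 2 groups, 3 control samples given PBS and 3 samples given LPS at 5 pg/ml for 4 h, a super-low dose of this bacterial lipopolysaccharide. The labels do not say whether the 3 samples of a group came from separate cultures or animals, so the p-values measure the spread between these samples, which may be technical. The comparison asks whether the dose altered the cluster's level, the proportions of its members or the use of their arms.

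A microRNA hairpin is cut out of its primary transcript in the nucleus and is cut again in the cytoplasm to a duplex of a 5p arm and a 3p arm. An arm kept by an Argonaute protein pairs with messenger RNAs mainly through its seed, bases 2 to 8, and lowers their output, while the other arm is mostly degraded. The cluster is known as an oncogenic microRNA locus that MYC activates, and in blood cells it is known for restraining Bim and for the growth and survival of lymphocyte and myeloid progenitors. All 6 hairpins are transcribed together, while their mature arms are cut, kept and degraded separately.

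In GRCm38 the cluster spans 836 nt on the plus strand of chromosome 14, with gaps of 35 to 96 nt between hairpins. Mir17 lies at chr14:115043671-115043754, Mir18 at chr14:115043851-115043946 and Mir19a at chr14:115044000-115044081. Mir20a follows at chr14:115044157-115044263, Mir19b-1 at chr14:115044305-115044391 and Mir92-1 at chr14:115044427-115044506. All 6 lie in an exon of Mir17hg (chr14:115042879-115046727), the long noncoding host gene, in its 1 annotated transcript of 3536 nt. The mature arms that carried most of the reads fall into 4 seed groups, and they are given here from RefSeq (GRCm38.p6), 5′ to 3′, with the seed in capitals. The first 2 share a seed, as do the miR-19 sequences, and this sharing is used below to set the cluster's output beside that of its relatives.
miR-17-5p: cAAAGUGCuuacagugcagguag
miR-20a-5p: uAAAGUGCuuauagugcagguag
miR-18a-5p: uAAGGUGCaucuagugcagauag
miR-19a-3p: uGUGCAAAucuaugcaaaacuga
miR-19b-3p: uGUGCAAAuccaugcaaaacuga
miR-92a-3p: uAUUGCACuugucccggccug

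Numbered from the 5′ end, miR-17-5p and miR-20a-5p differ by C1U and C12U only. The sequences of miR-19a-3p and miR-19b-3p differ by U11C. Between miR-17-5p and miR-18a-5p there are 6 differences (C1U, A4G, U9A, A11C, C12U and G20A), of which A4G lies in the seed. Hence each main arm had letters of its own within the cluster, and a read could be given to 1 member. Reads of Mir19b-1-3p cannot be told apart from those of Mir19b-2 on chromosome X, whose mature sequence is identical. Mir92-2, also on chromosome X, encodes the same miR-92a-3p, but its hairpin differs after the mature end.

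The deposited counts came to 2415199 to 3880822 reads per control sample, and to 5148083, 17691405 and 2201520 reads in LPS replicates 1 to 3. Of these reads, 61.6% to 71.0% matched a hairpin, and levels are given as reads per 1000000 hairpin reads (RPM). LPS replicate 2 stood apart from the other 5 samples. Sequences with a single read made up 18.6% of its distinct sequences and 67.1% to 74.6% of those of the other samples. The level of Mir146, a myeloid marker, was 55447 RPM in LPS replicate 2 against 2824 to 4524 in the others. The myeloid microRNAs Mir223 (6087 to 6574 RPM) and Mir142 (25864 to 30826) were high in every sample, and the 4 myeloid markers summed to 162905 to 205054 RPM in control and 161439 to 217587 in LPS. Most of each sum was Mir21a, at 124001 to 165686 RPM, and the highest sum was that of LPS replicate 2. Marker microRNAs of erythroid cells, liver and muscle summed to at most 1.83 RPM each, those of fibroblasts and smooth muscle to at most 3.39, and those of neurons to at most 3.47, with Mir124-1 at 0. Mir126a, of endothelium and platelets, stood at 33.8 to 50.3 RPM. The 3 epithelial markers summed to 28.0 to 49.6 RPM in 5 samples and to 99.3 in LPS replicate 2, and the lymphocyte marker Mir150 was at 49.2 there against 14.9 to 23.2. Several values below rest on LPS replicate 2 and are also given without it.

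The cluster held between 2.30% and 3.16% of all hairpin reads. Its 12 arms summed to 23777, 27411 and 30927 RPM in the control samples and to 24274, 23008 and 31592 RPM in the LPS samples. The groups overlapped fully, with 27372 ± 3575 (SD, n = 3) in control and 26291 ± 4634 in LPS. The difference of -0.06 in mean log2 level gave p = 0.8 in a two-sided exact permutation test, which cannot go below 0.1 with 3 samples against 3. In bulk RNA, fewer cells that use the cluster and less of it per cell cannot be told apart. A total carried almost wholly by 1 member says little of the rest, so the sum was also taken without Mir92-1. It was then 1500, 1774 and 1988 RPM in control and 1502, 2461 and 2062 in LPS, a log2 difference of 0.18 (exact p = 0.4). Without LPS replicate 2 that difference was 0.01, and without LPS replicate 1 it was 0.37.

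**Figure D1:**
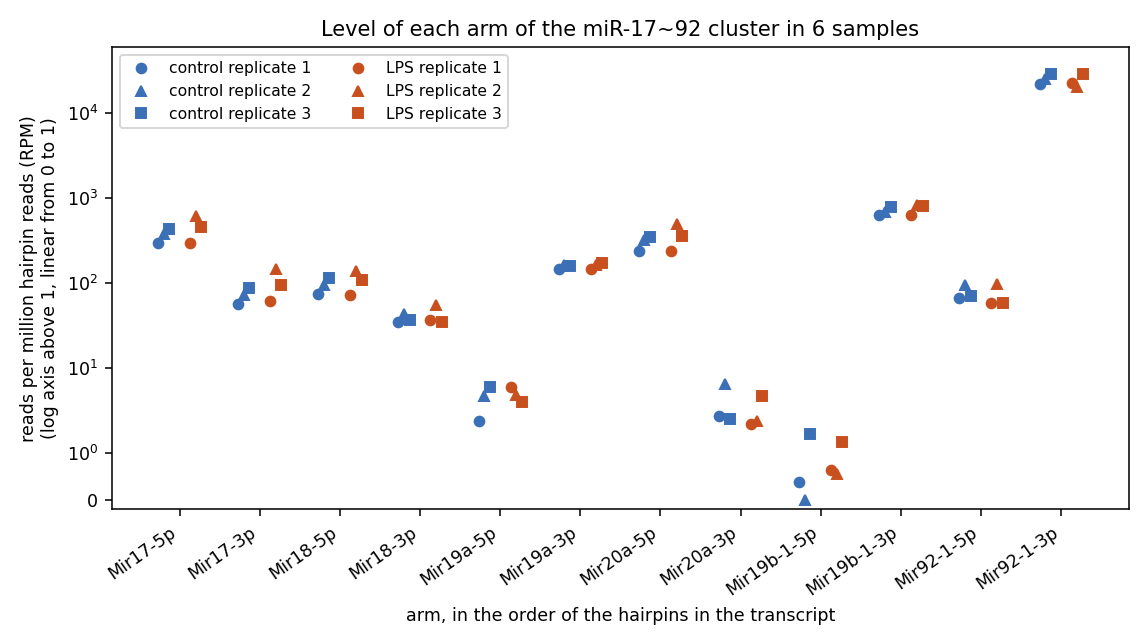
Level of each of the 12 arms in each sample, in RPM, on an axis that is logarithmic above 1 and linear from 0 to 1. Circles, triangles and squares are replicates 1, 2 and 3, blue for control and orange for LPS. Mir92-1-3p lies between 20451 and 29471 RPM and the other arms below 829, and LPS replicate 2 is the highest sample for Mir17-5p, Mir17-3p, Mir18-5p, Mir18-3p, Mir20a-5p, Mir19b-1-3p and Mir92-1-5p.

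Mir92-1-3p, the source of miR-92a-3p, dominated the cluster. Its level was 22210, 25542 and 28867 RPM in control and 22714, 20451 and 29471 in LPS. It was the 8th most abundant of the 319 arms tested. The next arm, Mir19b-1-3p, stood at 641, 686 and 791 RPM in control and at 643, 828 and 815 in LPS. Within a sample there were 24.7 to 37.3 reads of Mir92-1-3p for each read of Mir19b-1-3p.

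Mir17-5p, the arm that names the cluster, gave 300, 383 and 436 RPM in control and 295, 617 and 463 in LPS. Mir20a-5p, with the same seed, gave 240, 321 and 352 in control and 236, 504 and 364 in LPS. For both arms LPS replicate 2 was the highest and LPS replicate 1 the lowest of all 6 samples, so the LPS samples lay on both sides of the controls. Mir19a-3p was the steadiest member, at 147, 162 and 160 in control and 148, 165 and 172 in LPS, a spread of 1.17-fold over all samples. Mir18-5p, the source of miR-18a-5p, ranged from 75.1 to 115 in control and from 72.3 to 139 in LPS.

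The remaining arms are those usually degraded. Mir17-3p was the most abundant of them, at 56.7, 72.9 and 87.9 RPM in control and 61.5, 146 and 94.7 in LPS. Mir92-1-5p ranged from 57.7 to 96.6 and Mir18-3p from 34.7 to 54.5 RPM over the 6 samples. Mir19a-5p lay between 2.35 and 6.00 RPM, on 6 to 52 reads per sample. Mir20a-3p lay between 2.21 and 6.42 RPM, on 6 to 26 reads. Mir19b-1-5p gave 0 to 6 reads per sample, and in control replicate 2, with 0 of 1713855 hairpin reads, a count of 0 allows up to 1.75 RPM.

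The order from Mir92-1-3p through Mir19b-1-3p, Mir17-5p, Mir20a-5p and Mir19a-3p to Mir18-5p was the same in 6 of 6 samples. Below that, neighbours were not separated in every sample. Mir18-5p exceeded Mir17-3p in 5 samples (ratio 0.951 to 1.32), Mir17-3p exceeded Mir92-1-5p in 4 (0.772 to 1.61), and Mir19a-5p exceeded Mir20a-3p in 3 (0.727 to 2.71). Mir92-1-5p exceeded Mir18-3p in all 6. Comparing read counts of different arms assumes that each is captured alike, which was not measured here.

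**Figure D2:**
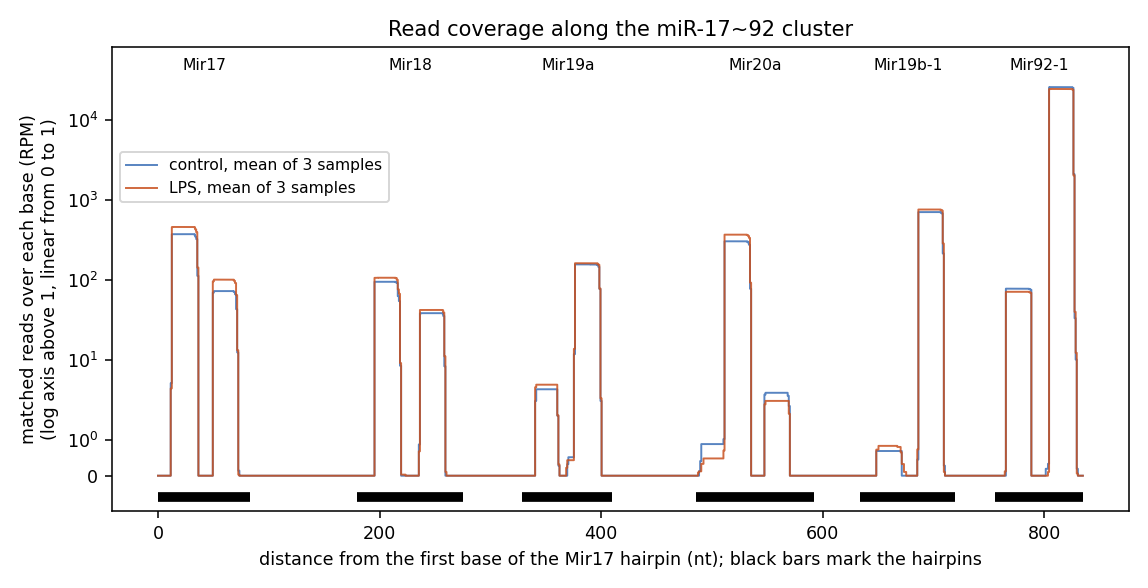
Matched reads over each base of the cluster in RPM, against the distance in nt from the first base of the Mir17 hairpin, as the mean of 3 control samples (blue) and of 3 LPS samples (orange). The axis is logarithmic above 1 and linear below it, and black bars mark the 6 hairpins. Each hairpin shows 2 blocks, 1 per arm, with the tallest block at the 3p arm of Mir92-1 and 0 between the hairpins.

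Reads came from the mature arms and from almost nowhere else. No read of at least 18 nt matched Mir17hg exactly between or beyond the hairpins, and 8 reads over the 6 samples crossed a hairpin's edge. Within the hairpins of Mir17, Mir18, Mir19b-1 and Mir92-1, all counted reads overlapped a mature stretch listed in RefSeq. Mir20a gave 17 reads outside its mature stretches. Mir19a gave 105, 2.87% of its reads, because RefSeq lists no 5p arm for it. The most frequent read there is shown because the RefSeq list used here holds no mature sequence for that arm.
Mir19a-5p: uaguuuugcauaguugcacu
This 20-nt read held 26.3% to 100% of the 6 to 52 reads of that arm in a sample.

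No arm of the cluster passed the test of LPS against control. Of its 12 arms, 10 passed the filter on low counts and entered edgeR's quasi-likelihood test with the rest of the 319 arms, while Mir20a-3p and Mir19b-1-5p did not pass it. The number called at an adjusted p under 0.05 was 0 of 10, and over all arms it was 0 of 319 (0%). An unadjusted p under 0.05 was reached by 0 members and by 8 of the 319 arms, whereas DESeq2 and limma-voom also called 0 arms (4 and 5 at an unadjusted p under 0.05). The adjusted p was 0.994 for every member tested with edgeR. Log2 fold changes were positive for 8 members and negative for 2, beside 162 and 157 over all 319 arms tested. The median was 0.13 for the members and 0.0027 over all arms. These signs are not independent, since all members were counted in the same libraries. Without LPS replicate 2 the members' count turned to 2 positive and 8 negative, with a median of -0.03 for the members and over all arms. It was 6 to 4 with upper-quartile scaling, and 4 to 5 when only the most frequent read of each arm was counted.

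The log2 fold change of Mir17-3p, the largest among the members, was 0.46 ± 0.33 (SE). Those of Mir17-5p and Mir20a-5p were 0.27 ± 0.27 and 0.25 ± 0.28. The values of Mir18-5p (0.15 ± 0.27), Mir18-3p (0.12 ± 0.25) and Mir19a-5p (0.22 ± 0.39) were smaller than their errors. The smallest errors were those of Mir19b-1-3p, Mir19a-3p and Mir92-1-3p, with 0.08 ± 0.13, 0.02 ± 0.14 and -0.10 ± 0.16. Mir92-1-5p stood at -0.15 ± 0.28.

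Much of the positive side came from 1 library. Set against the mean of the other 5 samples, LPS replicate 2 was higher by 0.98 on the log2 scale for Mir17-3p, by 0.75 for Mir20a-5p, by 0.73 for Mir17-5p, by 0.59 for Mir18-5p and by 0.53 for Mir18-3p. It was lower than every other sample for Mir92-1-3p, at -0.34. Without LPS replicate 2 the log2 fold change of Mir17-5p became -0.04, that of Mir20a-5p -0.08 and that of Mir18-5p -0.13, and Mir17-3p stood at 0.04. Without LPS replicate 1 Mir17-3p stood at 0.70. With at least 10 reads in every sample, LPS replicate 2 was above all other samples in 84 of 277 arms (30.3%) and below all in 85 (30.7%). The higher Mir200c, Mir200a and Mir150 levels of that library move with these values, while the remaining epithelial marker, Mir141, was not higher there. The part of these markers in the values was not tested.

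The proportions of the 6 hairpins within the cluster were nearly fixed in 5 of the 6 samples. Mir92-1 made up 93.7%, 93.5% and 93.6% of the cluster's reads in control and 93.8%, 89.3% and 93.5% in LPS. Mir19b-1, with any miR-19b-3p reads of Mir19b-2 counted in, followed with 2.50% to 2.70% in 5 samples and 3.60% in LPS replicate 2. Mir17 held 1.47% to 1.77% and 3.32% there, and Mir20a 0.982% to 1.20% and 2.20%. Mir19a held 0.537% to 0.636% and 0.736%, and Mir18 0.451% to 0.504% and 0.841%. LPS replicate 2 thus had the lowest share of Mir92-1 and the highest share of each other hairpin. None of the 6 shares passed the exact permutation test between the groups (p = 0.4 to 1, adjusted over the 6 hairpins 0.96 to 1), and without LPS replicate 2 the share of Mir92-1 differed by 0.045 percentage points. Counting error was small beside the drop of Mir92-1 to 89.3% in LPS replicate 2. The widest 95% Wilson interval of a share extended 0.222 percentage points to a side, which exceeds the difference of 0.045 without that replicate. Such intervals, and the limit for a count of 0, cover counting error only, since the reads carry no molecular identifiers.

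**Figure D3:**
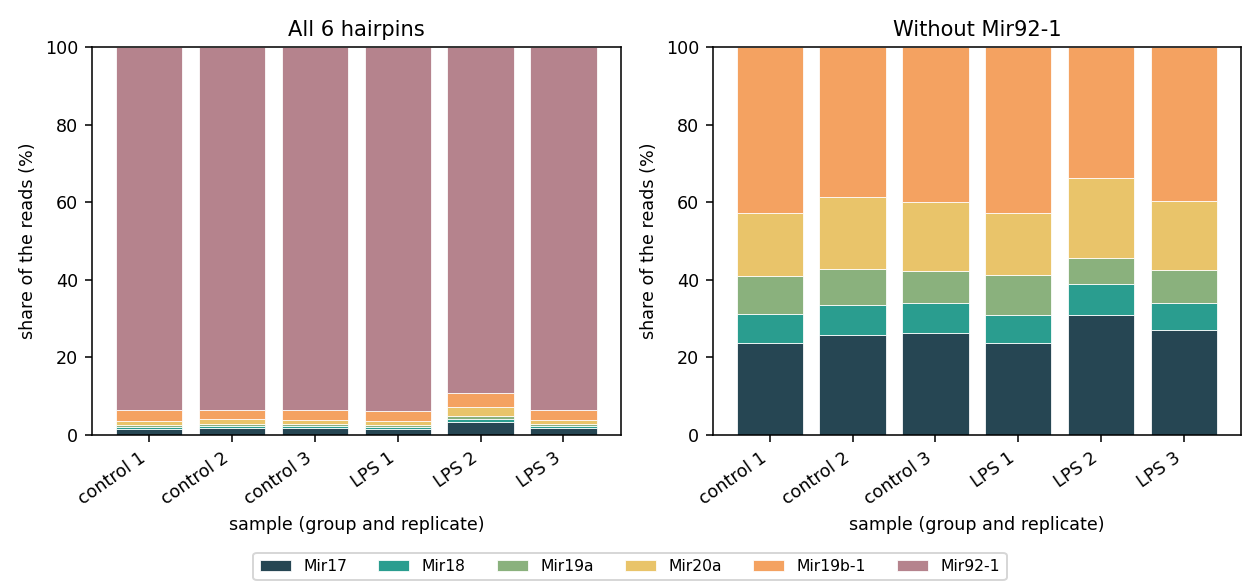
Share in percent of each hairpin in the cluster's reads, as 1 stacked bar per sample, for all 6 hairpins on the left and for the 5 hairpins other than Mir92-1 on the right. Mir92-1 takes 93.5% to 93.8% in 5 samples and 89.3% in LPS replicate 2, and on the right Mir19b-1 takes 33.7% to 42.9%.

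Among the other 5 hairpins, Mir19b-1 took 42.8%, 38.7% and 39.9% of the reads in control and 42.9%, 33.7% and 39.6% in LPS. These shares also hold any miR-19b-3p reads of Mir19b-2. Mir17 took 23.8%, 25.7% and 26.4% in control and 23.7%, 31.0% and 27.1% in LPS. Mir20a held 15.9% to 20.6%, Mir19a 6.88% to 10.3% and Mir18 6.93% to 7.86% over the 6 samples. The same exact test, which again could not reach 0.05, gave p = 0.5 to 0.8 (all 0.8 after adjustment over 5 hairpins). The difference in the share of Mir17 was 1.98 percentage points with all samples and 0.109 without LPS replicate 2, and that of Mir19b-1 turned from -1.71 to 0.812.

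The pair with a common seed kept 1 proportion in every library. The ratio of Mir17-5p to Mir20a-5p was 1.25, 1.19 and 1.24 in control and 1.25, 1.22 and 1.27 in LPS, so that its highest value was 1.07 times its lowest. LPS replicate 2 was no exception here, although both arms were highest in it. The ratio of Mir17-5p to Mir18-5p was also narrow, at 3.99, 4.05 and 3.81 in control and 4.08, 4.44 and 4.28 in LPS. Mir19a-3p stood at 0.199 to 0.236 of Mir19b-1-3p. By contrast, the ratio of Mir17-5p to Mir92-1-3p ran from 0.0130 to 0.0302, or over 2.32-fold, with LPS replicate 2 at the top. Of the 15 ratios between main arms, the smallest exact p was 0.1, for Mir17-5p to Mir18-5p, and 0.923 after adjustment over the 15.

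Each hairpin favoured an arm, and the side differed along the transcript. Mir17, Mir18 and Mir20a favoured the 5p arm, and Mir19a, Mir19b-1 and Mir92-1 the 3p arm. In Mir18 the preference was weakest, with 66.0% to 75.9% of reads on 5p. The 5p share of Mir17 was 80.8% to 84.1% and that of Mir20a 98.0% to 99.5%. In Mir19a 1.57% to 3.89% of reads lay on 5p, and in Mir92-1 0.199% to 0.470%. For Mir19b-1 the 5p share was at most 0.213%, and it is a lower limit because the 3p reads are shared with Mir19b-2.

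**Figure D4:**
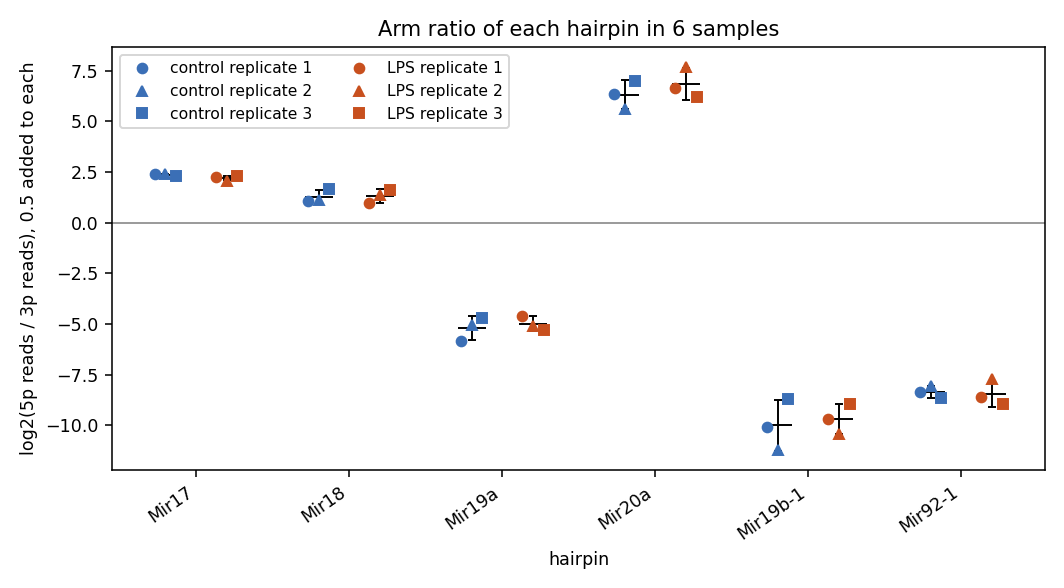
Log2 ratio of 5p to 3p reads of each hairpin in each sample, with 0.5 reads added to both. Circles, triangles and squares are replicates 1, 2 and 3 in blue (control) and orange (LPS), and black bars give the mean ± SD of 3 samples. Values lie above 0 for Mir17, Mir18 and Mir20a and below 0 for the other hairpins, and the groups overlap except for Mir17.

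Mir17 was the hairpin whose arm ratio came nearest to a difference. Its log2 ratio of 5p to 3p reads, with 0.5 reads added to each, was 2.40, 2.39 and 2.31 in control and 2.26, 2.08 and 2.29 in LPS. All 3 LPS values lay below all 3 control values, by 0.16 in the means (exact p = 0.1, the smallest this unpaired test allows, and 0.6 adjusted over the 6 hairpins). Among 77 hairpins with at least 10 reads of both arms in every sample, 6.49% had groups that did not overlap. Without LPS replicate 2 the difference was -0.09. For the other 5 hairpins the groups overlapped and the exact p was 0.5 to 1. Mir18 averaged 1.28 ± 0.32 in control and 1.31 ± 0.34 in LPS, and Mir92-1 -8.36 ± 0.29 and -8.43 ± 0.64.

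The 5′ ends, which set the seed, were uniform. The most frequent start held 97.7% to 100% of the reads of Mir17-5p, Mir18-5p, Mir20a-5p, Mir19b-1-3p and Mir92-1-3p in every sample. Mir19a-3p was the exception, with 88.8% to 94.1% at its main start and 5.51% to 10.9% starting 1 base earlier. At the 3′ end the arms varied more. The most frequent length was 23 nt for Mir17-5p, Mir18-5p, Mir19a-3p and Mir20a-5p, 22 nt for Mir19b-1-3p and 24 nt for Mir92-1-3p. For Mir19b-1-3p the 22-nt reads made up 54.6% to 66.7% in 5 samples and 42.8% in LPS replicate 2, where the RefSeq form of 23 nt was the most frequent at 49.5%. The share of reads identical to RefSeq was highest in LPS replicate 2 for 6 of the 10 member arms that could be compared, beside 43.3% of 127 arms overall. For start and length shares the exact permutation test between the groups, which cannot go below 0.1, gave p = 0.4 to 1.

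Most reads of miR-92a-3p carried bases at the 3′ end that the hairpin does not encode. The share of Mir92-1-3p reads with 1 to 3 unmatched bases was 80.0%, 76.9% and 73.5% in control and 78.5%, 71.4% and 72.3% in LPS. It was the 7th highest of 148 arms with at least 100 reads in every sample, whose median was 15.3% and upper quartile 32.2%. The other main arms lay between 3.82% and 14.9%. Among the arms that are usually degraded, Mir17-3p reached 22.8% to 42.8%. For Mir92-1-3p the groups overlapped, with 76.8% ± 3.2 in control and 74.1% ± 3.9 in LPS (exact p = 0.4, and 0.7 adjusted over 6 main arms).

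The 4 most frequent reads of Mir92-1-3p are shown to make the added bases visible, with the unmatched bases in capitals.
miR-92a-3p read, 2 bases added: uauugcacuugucccggccuguAA
miR-92a-3p read, other 2 bases added: uauugcacuugucccggccuguAU
miR-92a-3p read, fully matched: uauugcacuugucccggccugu
miR-92a-3p read, 3 bases added: uauugcacuugucccggccuguAAU

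The first held 24.8% to 29.1% of the arm's reads per sample and the next 19.0% to 24.7%. The fully matched 22-nt read held 16.1% to 23.3% and the last 5.06% to 6.67%. Of the reads with unmatched bases, 92.3% to 94.2% had only A or U there. Only 1.31% to 2.02% of reads were identical to the 21-nt RefSeq form, which ends 1 base short of the matched part of these 4. Allowing up to 5 unmatched bases added a further 1.70% to 2.04% of reads to the arm.

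**Figure D5:**
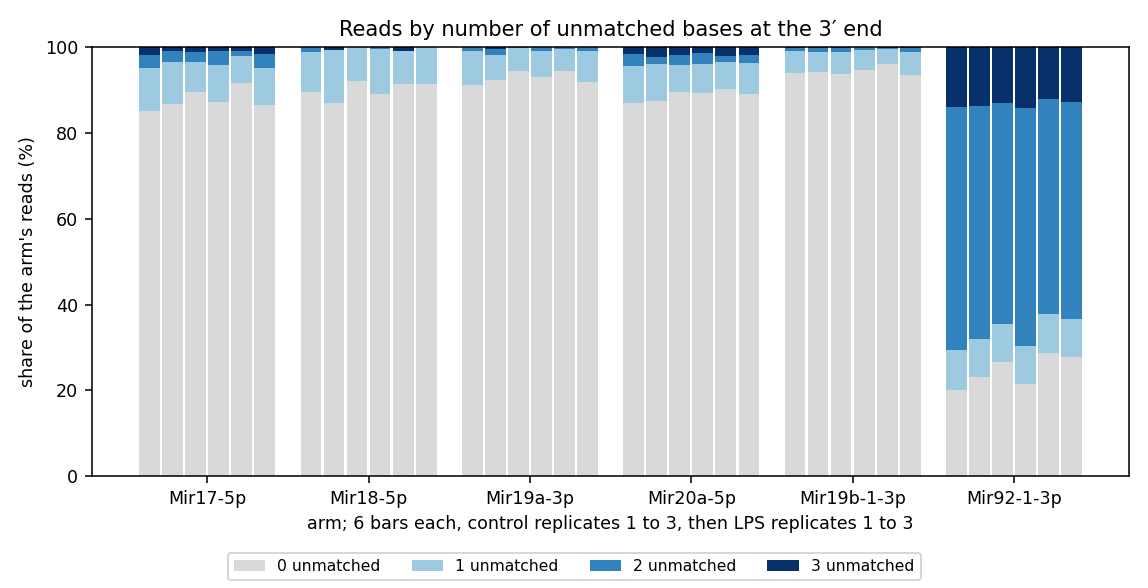
Share in percent of the reads of each main arm with 0, 1, 2 or 3 unmatched bases at the 3′ end, as 1 stacked bar per sample, control replicates 1 to 3 and then LPS replicates 1 to 3. Fully matched reads are 20.03% to 28.6% of Mir92-1-3p and over 85% of each other arm, and reads with 2 unmatched bases are 50.1% to 56.9% of Mir92-1-3p.

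The base after the RefSeq end bears on the source of miR-92a-3p. The hairpin of Mir92-1 continues with U and that of Mir92-2 with A. Counted over both hairpins, 95.1% to 96.3% of miR-92a-3p reads had U at that place, 1.39% to 1.91% had A and 1.29% to 1.99% ended before it. An added U on a product of Mir92-2 would read the same as an encoded U. Likewise, an added A on a Mir92-1 product of the RefSeq length would read the same as the encoded A of Mir92-2. These reads do not separate such cases. Mir92-2-3p, counted apart by its longer match, is described with its own cluster next, and 1.65% to 2.59% of the reads counted for Mir92-1-3p matched both hairpins equally well.

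Reads that could be given to the paralogous cluster on chromosome X, which runs from Mir106a to Mir363, were few apart from miR-19b-3p and miR-92a-3p. That cluster shares both mature sequences with miR-17~92. Mir92-2-3p stood at 359, 407 and 429 RPM in control and 333, 398 and 417 in LPS, as counted by its longer match. These reads may include Mir92-1 products with an added A. Mir106a, Mir18b and both unshared 5p arms, of Mir19b-2 and Mir92-2, gave 0 reads in all 6 samples, as did Mir20b-3p and Mir363-5p. A count of 0 allows 0.275 to 2.00 RPM in a sample. Mir20b-5p gave 1 read in all, and Mir363-3p gave 0 to 4 reads per sample. Reads of the shared miR-19b-3p, 99.9% to 100% of which match both loci, are therefore set beside 15 reads of Mir19b-1-5p and 0 of Mir19b-2-5p.

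The miR-106b~25 cluster on chromosome 5 was well expressed. Mir93-5p gave 2371, 2360 and 2709 RPM in control and 2387, 2211 and 2695 in LPS. Mir25-3p gave 2394, 2096 and 2813 in control and 2400, 2257 and 2783 in LPS. Mir106b-5p stood at 251 to 301 RPM, within a narrower range than Mir17-5p (295 to 617) and Mir20a-5p (236 to 504). Over the paralogs with reads, 8 of 10 arms were tested and 0 were called, with a median log2 fold change of -0.03. Mir92b-3p, from chromosome 3, gave 8.45 to 11.7 RPM, and Mir92b-5p gave 0 reads.
miR-93-5p: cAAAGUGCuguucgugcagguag
miR-106b-5p: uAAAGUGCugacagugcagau
miR-25-3p: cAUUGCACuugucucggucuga

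These 3 carry the seeds AAAGUGC of miR-17-5p and AUUGCAC of miR-92a-3p, which allows the reads to be summed by seed. For AAAGUGC the cluster supplied 16.7% to 31.0% of reads per sample, the highest share in LPS replicate 2, and miR-106b~25 supplied 69.0% to 83.3%, mostly as Mir93-5p. In AUUGCAC the order was the opposite, with 88.4% to 91.0% from Mir92-1-3p and 7.47% to 9.75% from Mir25-3p. Seed AAGGUGC came wholly from Mir18-5p. The miR-19 seed GUGCAAA came to 80.9% to 83.4% from reads counted for Mir19b-1-3p and to the rest from Mir19a-3p. The former reads match Mir19b-2 as well, so their locus is not known.

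Over the 6 samples, profiles within the cluster fell into kinds. Likeness was measured as the root-mean-square (RMS) difference of log2 TMM-scaled levels centred on their mean, where 0 is an identical profile. Mir17-5p and Mir20a-5p lay closest at 0.03, then Mir17-5p and Mir18-5p at 0.07, and Mir19a-3p and Mir19b-1-3p at 0.10. Mir17-3p and Mir92-1-3p were apart by 0.50. Outside the cluster and its paralogs, the arms nearest to the mean profile of the 10 members tested were Mir15a-5p (0.076), Mir128-1/Mir128-2-3p (0.077), Mir16-1/Mir16-2-5p (0.083), Mir126a-5p (0.093) and Mir872-5p (0.10). The median over 260 candidate arms was 0.33. The members themselves lay farther from their mean than these 5 arms, at 0.11 (Mir19b-1-3p) to 0.36 (Mir19a-5p). All 5 outside arms were highest in LPS replicate 2, so that library shapes this likeness.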

How the data were processed

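Small RNA libraries were made and sequenced by the authors with the Illumina TruSeq small RNA kit on a HiSeq instrument, trimmed with perl scripts and Btrim64, and quantified with mirAnalyzer, whose output was not used here. The deposited files hold raw counts of distinct trimmed reads of 11 to 40 nt, with no normalization. The submitters' processing notes name the build mm9, whereas all coordinates here are GRCm38. The labels give DMEM as the medium and the study's methods give RPMI.

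Exact matches to 1174 GENCODE M21 hairpins were sought for reads of 18 nt or longer, allowing up to 3 unmatched 3′ bases and at least 15 matched, with the arm set by the side of the hairpin's midpoint. Arms sharing at least 50% of their reads were merged, and other shared reads went to the longest match and then to the arm with most reads of its own. No genome search was made. Counts were compared with edgeR 4.0.16 (R 4.3.3, TMM, filterByExpr, quasi-likelihood test, Benjamini-Hochberg over all arms, threshold 0.05), and single values by two-sided exact permutation tests. DESeq2 1.42.0 and limma 3.58.1 were alternatives. The scripts were tested on simulated data.

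All 12 member arms, the paralogous arms and the 5 arms nearest in profile were named by rule. The members and lists were chosen with earlier results of these data known. Deviations of same-numbered control and LPS samples from their group means correlated over arms (0.594, 0.259 and 0.277 for numbers 1, 2 and 3). Differently numbered samples gave -0.386 to 0.153. The numbers were therefore taken to pair the samples, although the values for 2 and 3 lay nearer to that range. The source of the pairing is not given in the labels. The main edgeR fit and the exact permutation tests given above did not use the pairing. An exact test that flips the signs of the paired differences cannot go below 0.25 with these samples.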

Additional observations from a re-analysis of the deposited data

How the results depend on the processing

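Over 476 recomputed values of 36 results, 434 kept their direction and their side of the threshold, 41 changed sign and 1 count moved. The exact tests of cluster levels, arm ratios, shares and unmatched ends cannot reach 0.05, so for those results only the direction could change. No member arm was called under any alternative run. Without the filter on low counts, edgeR called 21 of 974 arms, of which 0 were members; every other alternative called 0 arms. In the paired analysis, with a replicate block, 0 of 319 arms were called and the smallest adjusted p among members was 0.854, with log2 fold changes of 0.22 for Mir17-5p and -0.11 for Mir92-1-3p; the block changed no call. With exact matches only, Mir92-1-3p turned to 0.040, the cluster's log2 difference to 0.11 and the share of Mir19a to -0.055 percentage points. These matches leave out the 71.4% to 80.0% of Mir92-1-3p reads with unmatched bases. With only the most frequent read per arm, Mir18-3p turned to -0.11, Mir19a-3p to -0.025 and Mir19b-1-3p to -0.071. With upper-quartile scaling Mir19a-3p turned to -0.060 and Mir19b-1-3p to -0.0020. The cause was not tested for the last 2 settings.

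Leaving out each sample in turn, log2 fold changes ranged from -0.035 to 0.49 for Mir17-5p, 0.04 to 0.70 for Mir17-3p, -0.13 to 0.35 for Mir18-5p, -0.13 to 0.28 for Mir18-3p, -0.061 to 0.51 for Mir19a-5p, -0.014 to 0.067 for Mir19a-3p, -0.080 to 0.47 for Mir20a-5p, -0.0047 to 0.17 for Mir19b-1-3p and -0.45 to 0.035 for Mir92-1-5p. The lowest of the first 4, and of Mir19a-3p, Mir20a-5p and Mir19b-1-3p, came without LPS replicate 2. Without LPS replicate 1, 1 of 11 members and 40 of 330 arms (12.1%) reached an unadjusted p under 0.05, and the smallest adjusted p among members was 0.404. The cluster's log2 difference ranged from -0.20 to 0.028. Differences in log2 arm ratio ranged from -0.13 to 0.21 for Mir18, -0.13 to 0.44 for Mir19a, -0.29 to 0.96 for Mir19b-1 and -0.43 to 0.19 for Mir92-1. Share differences, in percentage points, ranged from -0.0024 to 0.92 for Mir17, -0.034 to 0.16 for Mir18, -0.047 to 0.56 for Mir20a and -2.21 to 0.045 for Mir92-1. Among the other 5 hairpins they ranged from -1.51 to 0.187 for Mir19a, -0.636 to 1.72 for Mir20a and -3.79 to 0.812 for Mir19b-1. Differences in the share with unmatched ends ranged from -2.54 to 0.21 for Mir17-5p, -2.34 to 0.27 for Mir18-5p and -1.32 to 0.31 for Mir19a-3p. The alternatives with up to 5 unmatched bases, with all 2202 hairpins, with the miR-92a-3p arms merged, and those on unmatched ends and on the hairpins other than Mir92-1 were chosen after seeing the data. Depth limits Mir19a-5p, Mir20a-3p and Mir19b-1-5p, which rest on 0 to 52 reads per sample.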
